A study of Mus musculus with 10 samples.

Results

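Half-methylated dense islands are stretches of closely spaced CpG cytosines whose methylation level lay near the middle of the scale in mouse embryos at embryonic day 7.5. They were found in a table of methylation calls by reduced representation bisulfite sequencing, an assay that cuts out CpG-rich fragments and reads their unmethylated cytosines as thymines after bisulfite treatment. An autosomal position was taken as a member if more than 15 measured positions, itself included, lay within 100 bp on either strand and if its level, the methylated calls summed over 10 columns of counts divided by the summed coverage, was 40 to 60%. Members at most 200 bp apart were joined, and a region needed 5 or more of them. Of 540846 dense autosomal positions, 22382 were members, and 15981 of these formed 1721 regions while 6401 stayed outside any region. When dense positions of any level were joined in the same way they gave 18275 dense islands, of which 1716, or 9.39%, held a half-methylated region. Since the level itself chose the members, a level near 50% is a description of the choice and not a finding.

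The series holds 5 samples of an arsenic group and 5 samples of a control group, all embryos at the same stage. The sources used here give no compound, dose, exposed generation or strain, and do not say whether a sample was 1 embryo or a pool. The labels call the material embryos, while their extraction text also describes sperm DNA. The columns of the table carry the numbers 1 to 10 and name no group, so no column was tied to a sample and arsenic was not compared with control. Values are given as the lowest, median and highest of the 10 columns, and whether a column is arsenic or control cannot be told apart here. Each position had at least 10 reads in every column. Per column, autosomal positions had a median coverage of 26 to 48 reads.

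In mammals most CpG islands at gene starts stay unmethylated, whereas CpGs in the rest of the genome are mostly methylated once the embryo has implanted. Imprinted genes are the textbook exception, since the germ line methylates a control region on the maternal or the paternal copy only and the embryo keeps that mark through the wave of demethylation after fertilisation. Promoters of germ line genes are another known group: they are CpG-rich and gain methylation around implantation, which keeps these genes silent in somatic cells.

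A few promoter windows show how the half-methylated positions lie in the sequence. Each runs from 250 bases before to 50 after a RefSeq gene start and is taken from RefSeq on GRCm38.p6, 5′ to 3′ on the gene's own strand. Capitals mark the CpGs with a region position on either strand. The first 4 belong to imprinted genes and the last pair to germ line genes. They lie at chr10:13090582-13090881 on the plus strand (Plagl1), chr7:60005150-60005449 on the minus strand (Snrpn), chr11:22972817-22973116 on the minus strand (Commd1), chr2:152686898-152687197 on the plus strand (Mcts2), chr3:40708621-40708920 on the plus strand (Slc25a31) and chr3:95559427-95559726 on the plus strand (Hormad1).
Plagl1: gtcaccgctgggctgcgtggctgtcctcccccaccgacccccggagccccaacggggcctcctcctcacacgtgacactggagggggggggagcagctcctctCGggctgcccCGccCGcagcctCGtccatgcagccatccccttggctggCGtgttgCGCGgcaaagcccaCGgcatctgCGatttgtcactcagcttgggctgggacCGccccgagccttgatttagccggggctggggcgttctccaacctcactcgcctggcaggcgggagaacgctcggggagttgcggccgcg
Snrpn: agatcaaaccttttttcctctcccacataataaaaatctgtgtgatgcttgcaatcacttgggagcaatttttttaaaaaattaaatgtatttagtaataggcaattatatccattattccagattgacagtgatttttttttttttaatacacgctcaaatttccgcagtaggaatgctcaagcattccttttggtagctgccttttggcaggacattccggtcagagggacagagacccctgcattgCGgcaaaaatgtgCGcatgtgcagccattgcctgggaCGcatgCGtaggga
Commd1: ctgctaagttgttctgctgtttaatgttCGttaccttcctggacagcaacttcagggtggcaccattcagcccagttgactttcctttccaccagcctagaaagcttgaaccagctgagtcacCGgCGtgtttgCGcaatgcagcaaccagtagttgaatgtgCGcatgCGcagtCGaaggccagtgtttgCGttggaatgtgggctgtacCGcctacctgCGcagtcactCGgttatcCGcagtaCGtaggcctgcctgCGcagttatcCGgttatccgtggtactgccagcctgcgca
Mcts2: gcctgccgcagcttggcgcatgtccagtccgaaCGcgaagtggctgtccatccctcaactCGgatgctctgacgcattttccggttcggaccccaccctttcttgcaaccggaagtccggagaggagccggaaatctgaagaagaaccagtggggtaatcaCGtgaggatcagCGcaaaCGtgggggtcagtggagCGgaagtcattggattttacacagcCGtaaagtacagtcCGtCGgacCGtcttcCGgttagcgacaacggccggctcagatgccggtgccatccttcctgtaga
Slc25a31: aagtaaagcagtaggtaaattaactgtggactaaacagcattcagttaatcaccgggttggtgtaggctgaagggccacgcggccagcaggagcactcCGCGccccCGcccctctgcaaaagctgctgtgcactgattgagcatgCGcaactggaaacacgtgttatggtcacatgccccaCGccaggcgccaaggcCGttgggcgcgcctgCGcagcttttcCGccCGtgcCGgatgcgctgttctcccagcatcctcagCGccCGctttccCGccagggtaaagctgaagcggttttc
Hormad1: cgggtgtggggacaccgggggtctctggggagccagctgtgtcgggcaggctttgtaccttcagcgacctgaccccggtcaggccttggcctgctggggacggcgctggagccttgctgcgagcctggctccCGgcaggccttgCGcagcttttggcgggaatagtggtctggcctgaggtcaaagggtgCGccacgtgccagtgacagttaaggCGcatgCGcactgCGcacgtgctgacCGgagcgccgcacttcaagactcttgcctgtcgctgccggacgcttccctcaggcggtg

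All 29 measured positions in the Commd1 window and 17 of 21 in the Plagl1 window belonged to a region. The Snrpn window had 8 of its 9 measured positions in a region, and they gathered at the transcription start. In the Slc25a31 window 16 of 30 measured positions were in a region and single positions ran from 21.0 to 62.3%, whereas in the Commd1 window they ran from 45.2 to 54.1%. Hormad1 had 8 of 18 measured positions in a region, and its window spanned 20.8 to 56.8%. In the other imprinted windows single positions ran from 36.5 to 53.7% (Plagl1), from 46 to 55.7% (Snrpn) and from 52.7 to 64.1% (Mcts2), narrower spans than in the germ line windows shown here.

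The members sat on a shallow part of a distribution with most of its weight at the low end. Of the dense autosomal positions 4.14% were members, while 77.6% had a level under 10%, 5.77% were at 60 to 80% and 1.07% were over 90%. Nothing set the members apart at the limits of the rule, as the plot of dense levels shows. The step from 40 to 41% held 893 dense positions and the step just below it 826. At the upper limit the step from 59 to 60% held 1477 and the step just above it 1397. There were 4857 positions of the right level with exactly 16 measured positions within 100 bp, and 6251 with 15, just outside the rule.

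**Figure D1:**
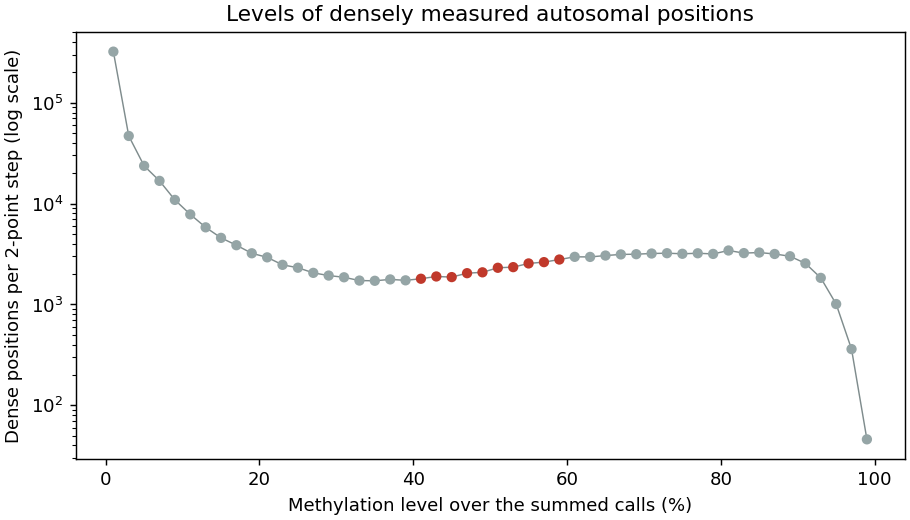
Number of dense autosomal positions (log scale) in steps of 2 percentage points of the methylation level over the summed calls, with the members at 40 to 60% in red and other positions in grey. Members make up 4.14% of the dense positions and sit on a shallow part of the curve, with no peak at the middle.

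A region had a median of 8 positions over 92 bp, with a range of 5 to 45 positions and 8 to 625 bp. There were 584 regions of 10 or more positions, 81 of 20 or more and 16 of 30 or more. The median coverage of a region position was 446 reads summed over the columns, against 403 reads at the other dense positions. Most regions were not solid blocks. Their spans held 27554 measured positions, of which 15981 were region positions, 4325 were below 40% and 7018 above 60%. In 198 regions every measured position of the span was a member. The SD of the levels over all measured positions of a span, a measure of evenness that counts the positions outside 40 to 60% too, had a median of 8.34 percentage points.

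The regions lay away from gene starts. Of the islands with a region 8.81% were within 1000 bp of a RefSeq start, against 54.9% of the islands without one, counted where the table of starts had an entry for the chromosome. Only 22 regions overlapped a start. Within 1000 bp of either end of a gene there were 354 regions (20.6%), inside genes 894 (51.9%) and between genes 473 (27.5%), while islands without a region had 63.2% at gene ends, 27.8% inside genes and 9.03% between genes. Put the other way, a region was present in 3.30% of the islands at gene ends, 16.2% of those inside genes and 23.9% of those between genes. By chromosome the share of islands with a region ran from 7.58% on chromosome 11 to 11.8% on chromosome 7.

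Along protein-coding genes the regions were spread over the whole length with more at the 3′ end. Of 828 regions in coding genes with a known strand, 20.05% lay in the first 20% of the gene's length, 16.1 to 17.6% in each of the next 3 steps of that size and 30.1% in the last. Islands over 60% methylated without a region leaned further to the 3′ end, with 38.2% in the last step and 8.98% in the first. Islands under 20% were of the opposite kind, with 80.6% in the first step. The median position was 57.1% of the gene length for the regions, 71.0% for islands over 60% and 2.00% for islands under 20%.

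**Figure D2:**
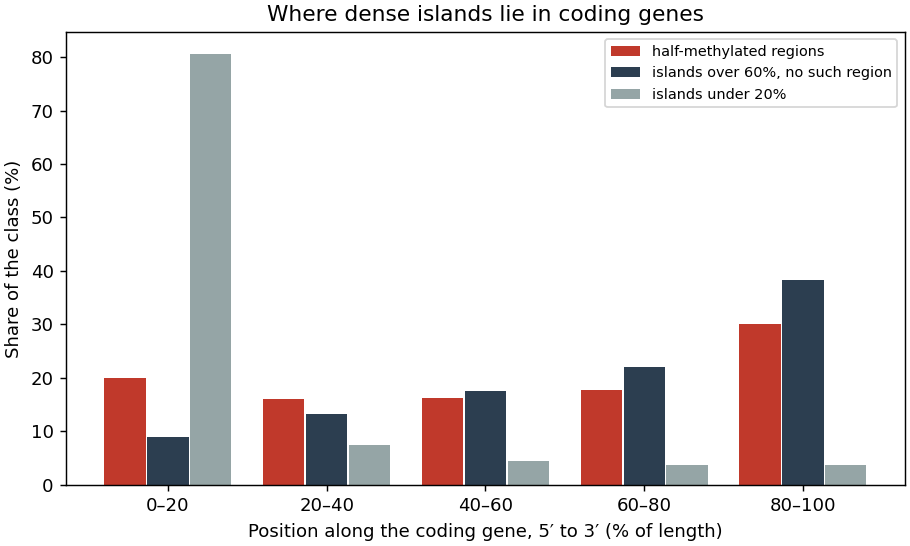
Share of each class of dense islands (%, y axis from 0) in 5 equal steps along protein-coding genes from 5′ to 3′, for 828 half-methylated regions in red, 1381 islands over 60% without such a region in dark blue and 8060 islands under 20% in grey. The regions reach 30.1% in the last step, the islands over 60% to 38.2%, and the islands under 20% sit in the first step with 80.6%.

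Islands over pseudogenes held regions more often than islands over protein-coding or long noncoding RNA genes. Pseudogenes are copies of genes that have lost their function. Of 303 dense islands over a pseudogene 107 held a region, a share of 35.3%, against 7.27% of the islands over protein-coding genes and 7.61% of those over long noncoding RNA genes. Without regard to gene class, 16.2% of the islands inside genes and 23.9% of those between genes held a region. The share was 40.5% of the 247 islands over pseudogenes not annotated as transcribed and 12.1% of the 58 over transcribed ones. The longest of these lay over Gm19430, with 37 positions over chr1:34930035-34930624 and columns at 45.9% (lowest), 52.5% (median) and 54.5% (highest). A region of 30 positions at Timm29-ps1 had a lowest column of 37.3% and a highest of 67.3%. Reads of a pseudogene and of a near-identical copy elsewhere can be exchanged in alignment, and the part of this in the values was not tested.

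Islands at imprinted genes held regions more often than islands at large. The 3 lists of imprinted genes, which were drawn up with earlier results of these data known, had 109 dense islands on or within 5000 bp of a member, and 32 of them (29.4%) held a region, against 9.39% of all islands. Together these 32 regions held 480 positions at 30 named genes. Their share differed between the 3 lists. The islands counted are those at the listed genes, and whether they cover the control regions was not examined. Genes whose control region is methylated in the egg had a region in 28 of 50 islands (56.0%), genes controlled by sperm methylation in 1 of 21 (4.76%) and genes whose imprint follows later from a neighbouring control region in 3 of 38 (7.89%). As a share of all 1721 regions the 32 made up 1.86%.

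Among the regions at maternally methylated genes, those at Peg10, Plagl1 and Snrpn and the larger one at Grb10 took up whole islands. Peg10 comes from an ancient retrotransposon and is needed for the placenta in mice; it shares its start with Sgce, a sarcoglycan gene. Its region at chr6:4747363-4747490 held 23 positions, all the measured positions of the island, with columns at 41.4%, 55.8% and 67.2% for lowest, median and highest. Position by position it was the most even of the larger whole-island regions, with an SD of 1.83 percentage points between positions. Plagl1 codes for a zinc finger transcription factor. Its 17 positions at chr10:13090685-13090793, those in capitals in the window above, had an SD of 2.79 points between positions but columns at 35.4%, 49.2% and 75.2%. The level was thus alike from position to position in the summed calls, while single columns stood up to 39.7 points apart.

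Grb10, an adaptor that restrains growth, carried 2 regions inside the gene. The larger, at chr11:12025628-12025760, had 27 positions in an island of 27, with columns at 36.0%, 50.5% and 68.5%. At Snrpn and Snurf, which share a start and make a splicing protein and a small upstream protein, 24 of 24 island positions at chr7:60005052-60005200 were members and columns ran from 43.7% over a median of 48.5% to 62.6%. Impact, a regulator of translation, had the second largest region of the autosomes, 42 of 44 island positions at chr18:12973181-12973469 with columns at 37.0%, 48.9% and 56.7%.

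The imprinted retrogenes, copies inserted into an intron of a host gene, were also represented. Zrsr1, inside Commd1, carried 3 regions between chr11:22971982 and 22973785. The largest, of 29 positions, had columns at 36.2%, 48.6% and 59.2%. Its positions differed by an SD of 2.26 points, over a span of members only, whose levels the rule bounds. It made up 35.8% of an island of 81 positions with a mean level of 39.3%. Mcts2, inside H13, had 17 positions at a pooled level of 57.3%, in an island whose mean level was 60.4%, so that many neighbours lay just over the upper limit. Nap1l5, inside Herc3, was alike: 9 positions at 56.7% in an island with a mean of 62.6%. Nnat, a small membrane protein gene in an intron of Blcap, had 22 positions at 54.9% with columns from 47.7 to 62.2%.

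The Gnas locus, which makes several proteins and RNAs with different imprints, held 6 regions. A pair of 19 and 16 positions overlapped the antisense RNA Gnasas1, and regions of 30, 5 and 14 positions lay further along in Gnas alone, within 5000 bp of Gnasas1. The pooled levels of these 5 ran from 47.1 to 54.6%. The last, 6 positions at chr2:174328544-174328781, was a small part of an island of 44 positions with a mean level of 29.1%. Neighbouring regions did not keep the same order of columns. The region of 30 positions was highest in column 6 at 68.2%, whereas that of 14 positions, 688 bp away, had 51.2% in column 6 and its highest value, 65.7%, in column 3.

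Regions also lay in the genes of a pair of noncoding RNAs. Kcnq1ot1 is the antisense RNA that silences genes near Kcnq1, and a region of 8 positions at chr7:143295570-143295603 lay 944 bp from its start. Its columns were at 27.2% (lowest), 51.9% (median) and 69.6% (highest), and only 3 of the 10 were within 40 to 60%, the fewest of the 1721 regions. Airn, the RNA that silences Igf2r, had 2 regions of 6 positions each with columns from 39.4 to 63.0% and from 43.2 to 58.4%. Mest, a hydrolase gene, had 15 positions with columns from 40.1 to 62.6%.

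The remaining regions at maternally methylated genes were at Cdh15, Ptpn14, Usp29 and Fkbp6. Cdh15, a cadherin of muscle, had 2 regions of 12 and 7 positions, and Ptpn14, a phosphatase gene, had 2 of 11 and 5. Fkbp6, a gene needed for meiosis in males that stands in the germ line list as well, had 9 positions at 54.3% in an island with a mean level of 65.1%. Usp29 had 9 positions with columns from 48.2 to 58.6%. Of the genes on this list with dense islands but no region, Inpp5f had 1 island at 0.629%, Ndn 1 at 11.3%, Mkrn3 1 at 10.04%, and Peg12 2 at 5.50 and 8.63%. Trappc9 had 2 at 75.3 and 76.7%, and Zfp777 had 3 at 0.666, 1.25 and 73.7%. Peg3, Zim2, Magel2, Peg13 and Slc38a4 had no dense island in the table, so the rule could not find a region there.

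At genes controlled by sperm methylation the single region lay in Begain, near Dlk1 on chromosome 12. It was large, 35 positions over chr12:109033662-109034195, but uneven: 95 positions were measured in its span, their SD was 14.03 points, and columns ran from 41.5 to 51.0%. Islands at Igf2 (0.844, 1.04 and 1.36%) and Rasgrf1 (4.09 and 1.91%) were unmethylated, and those at Rtl1 ran from 64.98 to 83.1%. Others without a region were less clear-cut. Meg3 had islands at 28.6 and 62.7%, Dlk1 at 3.56 and 29.9%, and Zdbf2 at 1.96, 17.7 and 62.1%, the last shared with Gpr1. The other islands at Begain ran from 4.28 to 59.2%. H19, Rian and Mirg had no dense island. The secondary list gave regions at Zim1 (5 positions), near Zim3 (9) and near Slc22a3 (11), a cation transporter of the placenta. The region near Zim3 was nearest to LOC115485607, and the one near Slc22a3 overlapped Plg, not Slc22a3 itself. Of its 38 islands 31 had a mean level under 20%.

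**Figure D3:**
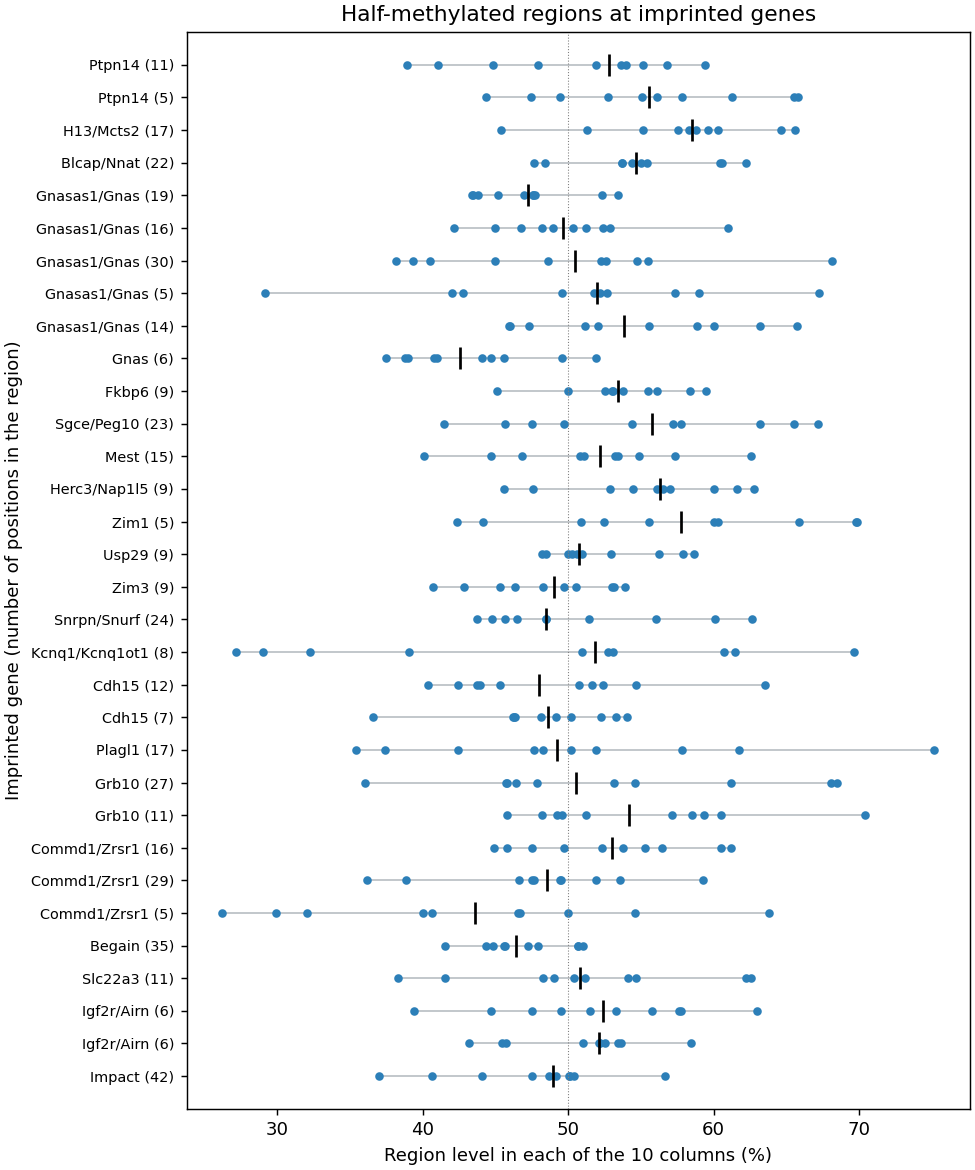
Methylation level (%, x axis) of the 32 half-methylated regions at imprinted genes in each of the 10 columns of the table, 1 line per region in genomic order with its number of positions in brackets. Each blue point is 1 column, the grey line joins the lowest and highest column and the black tick is their median. The medians lie close to 50% in most regions, while the spread of the columns differs from 9.50 points at Begain to 42.4 points at Kcnq1ot1.

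Regions at imprinted genes were more even along the sequence than the other regions. This is a description, since the members' own levels, held within 20 points by the rule, enter each of the values that follow. The median SD over a span was 5.25 points in the 32 imprinted regions and 8.42 in the other 1689. All measured positions of the span were members in 12 of the 32, against 198 of all 1721. In 15 of the 32 (46.9%) at least 80% of the island's positions were members, against 220 of all 1721 (12.8%). Between columns the median range was 20.4 points in the imprinted and 21.0 in the other regions. The correlation of calls within a column, an estimate of the spread beyond counting error, had a median of 0.0318 over the imprinted and 0.0394 over the other regions. In 15 of the 32 the range was under 20 points and in 6 over 30.

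**Figure D4:**
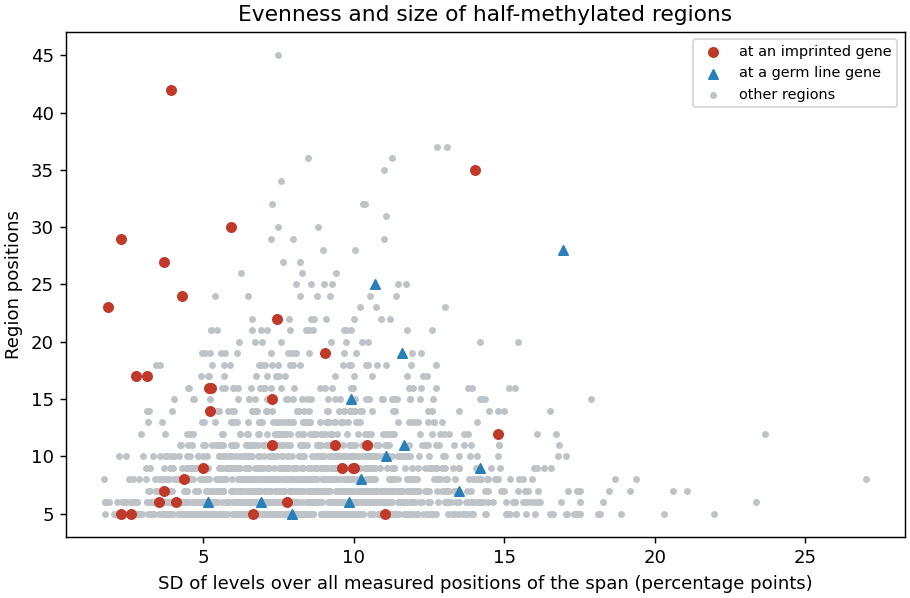
Each point is a half-methylated region, placed by the SD of the levels over all measured positions of its span (x axis, percentage points) and by its number of positions (y axis). Red circles are the 32 regions at imprinted genes, blue triangles those at germ line genes and grey points the others. Fkbp6, on both kinds of list, is drawn in red. Several red points with many positions lie toward the left, such as Peg10 at 1.83 and Plagl1 at 2.79 points. Grey points lie there too, the lowest at 1.72 points. Most of the blue ones lie further to the right, with Ddx4 the furthest left of them at 5.15 points.

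Some regions at genes of none of the lists looked like the imprinted ones. There were 88 regions of 10 or more positions in islands with at least 80% members, a set defined after the values were seen, and 10 of these (11.4%) were at imprinted genes, against 19 of all 584 regions of that size (3.25%). Ordered by the SD over the span, 5 of the first 10 were imprinted: Peg10, Plagl1, Grb10, Impact and Snurf. The others were a region in Gm34516 (14 positions, SD 3.12), one at the end of Gm34653 (10 positions, SD 3.35), one between genes, nearest to the start of Osmr (18 positions, SD 3.44), one inside Ddx54, a helicase gene (18 positions, SD 3.58) and one inside Wipf1, a gene of the actin skeleton (13 positions, SD 3.64). Their columns ran from 29.4 to 72.7% at Gm34516, from 42.7 to 60.1% at Gm34653, from 39.9 to 57.4% at Osmr, from 33.8 to 64.9% at Ddx54 and from 34.8 to 60.1% at Wipf1. Among the next 10 none was at an imprinted gene. Whether any of these differs between the parental copies was not measured, since the table holds no alleles.

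Levels around the regions were mostly intermediate or high. Flanks were taken as the positions over 200 and up to 1000 bp outside each end, with at least 3 measured positions. The 29 flanks of imprinted regions had a median level of 49.9% and an interquartile range from 47.2 to 52.4%, and the 1071 flanks of all regions a median of 54.5% with one from 43.4 to 65.01%. Some flanks hold another region of the same locus, as at Gnas, Zrsr1, Grb10 and Airn, and their level is then partly set by the rule. In the 17 flanks of imprinted regions with no other region within 1000 bp, a choice made after the values were seen, the median was 51.8% and the interquartile range 47.2 to 61.2%, against 54.96% and 43.0 to 65.7% in 988 such flanks of the other regions. Both flanks could be measured at 191 regions. In 118 of these (61.8%) both were above 40%, in 36 both above 60%, in 22 both at most 40% and in 3 both under 20%. At 14 regions (7.33%) one side was under 20% and the other above 60%, so that the half-methylated stretch lay on a slope. Of these, 9 were among the 46 measured at gene ends (19.6%) and 5 among the 145 measured away from them (3.45%).

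Islands at germ line genes also held regions more often than islands at large. The list of germ line genes had 31 dense islands, and 14 of them (45.2%) held a region, against 9.39% of all islands; the 14 regions held 164 positions at 13 genes. All 14 were within 1000 bp of a RefSeq start, though the start nearest to the Spo11 region was that of Gm52538, 969 bp away. The largest was at Dazl, which binds RNA and is needed to make germ cells, with 28 positions at chr17:50293159-50293621 and columns at 44.3%, 51.4% and 58.4%. It lay on a slope: the flank inside the gene was at 0.919% and the flank upstream of the start at 83.8%.

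Slc25a31, a mitochondrial ADP/ATP carrier of the testis, had 25 positions with columns at 36.3%, 50.2% and 62.5%. Among genes of the meiotic chromosome axis, Sycp2 had 19 positions (columns from 40.04 to 52.9%), Hormad1 8 (18.4 to 57.2%) and Hormad2 5 (41.4 to 55.1%). Genes of meiotic recombination had regions too, with 9 positions at Msh4 and 7 at Spo11, the nuclease that makes the breaks. Meioc, which keeps cells in meiosis, had 2 regions of 11 and 6 positions, and Mael and Ddx4, of the pathway that silences transposons, had 10 and 6. Tuba3b, a tubulin gene of the testis, had 15 positions and Tex101, a surface protein of sperm cells, 6. At Hormad1 column 4 stood apart at 18.4%, with the other 9 columns between 38.96 and 57.2%.

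These regions were less even than the imprinted ones. Their median SD over the span was 10.5 points, and in 2 of 14 were all span positions members. The 31 islands of the list had mean levels under 20% in 8, from 20 to 40% in 10, from 40 to 60% in 6 and over 60% in 7, while of all islands 70.8% were under 20%. Germ line genes with islands but no region included Asz1 at 82.7%, Tuba3a at 72.6%, Zfp42 at 33.1%, Rad21l at 22.2% and Stag3 at 0.782%.

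Promoter windows could be set against the sequence at 56 places where a window held a region. Their median ratio of observed to expected CpGs was 0.666, between 0.857 in 5354 windows over islands without a region and 0.388 in all 31365 windows. A pair of motifs were searched on both strands, with overlaps counted. TGCCGC, the hexamer that the imprint-keeping zinc finger protein Zfp57 binds when methylated, was in 5 of 7 windows over imprinted regions, of which those of Plagl1 and Hymai overlap, and in 11 of 56 windows over any region (19.6%). It was in 25.8% of windows over islands without a region and in 11.6% of all windows. In the Plagl1 and Snrpn windows printed above the match includes a CpG of the region, on the other strand at bases 161 and 249, and in the Mcts2 window it lies at base 4, outside the region. TCCCGC, a core of the sites of E2F factors, was in 7 of 11 windows over germ line regions, of which the pair of Hormad1 windows overlap, in 17 of 56 windows over any region (30.4%), in 44.3% of windows over islands without a region and in 20.2% of all windows. These matches are letters only, and no binding was measured.

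Windows with a region at genes of no list included several genes with a known role in the testis. Hsf5, a heat shock factor of male meiosis, had 22 of 34 measured positions in a region and a mean level of 48.7%. Dmrtb1, a regulator of the entry into meiosis, had 14 of 37 at 51.4%, and Boll, a relative of Dazl, had 6 of 17 at 38.4%. Oxct2b, a testis enzyme of ketone use, carried regions of 30 and 29 positions near its start on chromosome 4, with columns from 44.4 to 72.2% and from 44.7 to 64.8%; they also lie within 5000 bp of Bmp8b. These genes were picked from the windows after their values were seen, and the share of testis genes among such windows was not counted. Windows at Gsn, Tox2, Il12a and Abca4, among others, held region positions too.

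The other gene groups had shares near or below the 9.39% of all islands, apart from the olfactory and vomeronasal receptors and the protocadherins. Receptor genes of smell had a region in 12 of 31 islands on or within 5000 bp of them (38.7%). Several of these genes were pseudogenes, such as Vmn2r-ps133 with 15 positions. The median level of the 31 islands was 63.8%, against 2.03% over all islands. Protocadherins, adhesion proteins of neurons, had 5 of 28 (17.9%), all of 5 to 7 positions. Zinc finger genes had 26 of 382 (6.81%), microRNA genes 28 of 359 (7.80%) and Hox genes, which lay in islands with a median level of 8.82%, 0 of 73. Marker genes of the trophoblast had 6 of 57 (10.5%). The largest were the pair near Oxct2b described above, counted here through Bmp8b, and those at Fgfr2 and Ets2. Elf5, a regulator of the trophoblast lineage, came last by size and is named outside the rule. Its region had 7 positions and columns at 27.9% (lowest) and 73.1% (highest). Markers of the visceral endoderm had 1 of 31 (Gata4), of the decidua 1 of 23 (Wnt4), of blood 1 of 14 (Hba-x) and genes of gastrulation 3 of 76 (Wnt3a, Wnt3 and Gsc). The share of each tissue in a sample was not measured, and its part in the levels was not tested.

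The largest regions lay inside genes more often than at gene ends, as did all regions (51.9% inside genes and 20.6% at gene ends). Slc8a2, a sodium-calcium exchanger of the brain, had 45 positions at chr7:16140538-16140965, 83.3% of its island, with columns at 43.9%, 49.98% and 55.98%. After Impact came Gm19430 and Jph3, a junction protein of neurons, with 37 each, Bcl11b, a transcription factor, and Rps6ka4, a kinase gene, with 36 each, Begain with 35 and Zfp787 with 34. Ntng2, 4930404N11Rik and Sbk1 had 32 each. In these 11 regions single columns lay between 37.0 and 60.8%. At Zfp787 column 9 had 42.5% and the other columns 52.7 to 60.8%.

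Each column had the regions near the middle level, which the rule partly sets, since the 10 columns together chose the regions. The median over the regions was lowest in column 6 at 48.8% and highest in column 1 at 53.4%, and the share of regions within 40 to 60% was lowest in column 9 (73.9%) and highest in column 6 (86.1%). The same order held partly at other positions, since column 1 also had the highest mean level over the other dense positions (11.3%) and column 6 the lowest (10.7%). All 10 columns were within 40 to 60% in 296 regions (17.2%), and 6 of the 32 imprinted regions were of this kind. No single column set the extremes of the imprinted regions: the highest value was in column 9 in 7 of 32, and the lowest in column 6 in 7 and in column 10 in 6.

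Choosing the regions without a column and reading the level in that column gave values free of the choice. The median level in the column left out was 49.0 to 54.2% over the 10 choices, and 69.8 to 80.9% of the regions lay within 40 to 60% there. The strands of a CpG had similar levels. Where the opposite cytosine of the same CpG was measured, the levels of a region position and its partner differed by a median of 4.19 points, and 76.9% of the partners were at 40 to 60%. A partner at that level is itself a member and helps to form the region, so this share is partly set by the rule. Partners of sparse positions of the same level, with at most 5 measured positions within 100 bp, were at 40 to 60% in 74.6%.

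The columns differed more than counting error at the region positions. A chi-square of the calls over the columns, divided by its degrees of freedom, was taken at each position alone, where it is 1 if only counting error acts. It had a median of 2.63 at region positions, against 1.87 at sparse positions of the same level and 2.19 at the other dense positions. The value was not particular to the regions, being 2.65 at members outside regions and 2.58 at dense positions of 20 to 40%. It grows with coverage, which was 446 reads at region positions, 337 at sparse and 403 at the other dense positions, so the correlation of calls within a column, a beta-binomial estimate that allows for coverage, was set beside it. This was 0.0401 at region positions, 0.0378 at members outside regions, 0.0412 at dense positions of 20 to 40%, 0.0272 at sparse positions and 0.0327 at the other dense positions. Imprinted regions had 0.0370 and germ line regions 0.0438. No molecular identifiers are named in the sources used here, so repeated copies of the same molecule can enter these values, and their part was not tested. Among regions of 10 or more positions the chi-square value was highest at Sfi1 (4.96), Htr6 (4.94), Rwdd3 (4.90), Ppp1r2-ps5 (4.80) and 4930413E15Rik (4.66), and lowest at Gm35667 (1.01), Trerf1 (1.03), Rpl15-ps6 (1.08), Grm4 (1.102) and Gm4761 (1.15). Since the value grows with coverage, this is not an order of distance between columns. Sfi1, with 4510 reads, had a correlation within columns of only 0.0055, while Gm4761, with 188 reads, had columns from 37.2 to 71.0%.

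A few regions had coverage far above the rest. Sfi1, a centrosome gene on chromosome 11, had a median of 4510 summed reads per position, and its 18 positions had columns at 46.6%, 50.9% and 54.4%. The region next to Rn18s-rs5, which is related to ribosomal RNA, had 2431 reads and 7 positions in an island of 736. The next were nearest to Gm35297 (1392 reads), Mobp (1281) and Gm41250 (1250), while the median region had 452. Whether reads of several genomic copies were gathered at these places was not tested.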

How the data were processed

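The deposited table holds raw counts for each cytosine position, namely coverage, methylated and unmethylated calls, in 10 sets of columns, per the file headers. Trim Galore, Bismark, methylKit and the build mm10 are named in the submitters' processing notes. The sources used here give no versions or settings. Of 2137826 rows, 2 repeated a position and were left out, and 2101419 autosomal positions were used. Each of them had 10 or more reads in each column, as tested on the table, and coverage summed over autosomal positions was 72552177 to 126221363 per column. A level is the methylated calls divided by coverage, without normalization. No column name matched 1 sample alone, so the 30 count columns were tied to no sample and used as 10 unnamed sets, the planned test of arsenic against control was not run, and values are the median and range over columns, with no p-value.

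Genes, starts and promoter sequences came from RefSeq tables of GRCm38, the assembly that mm10 corresponds to; exons, repeats and chromosome 18 starts were not analysed here. A region is called by its nearest gene and counted at a list gene if it lies within 5000 bp. The members and the 14 lists were chosen with earlier results of these data known. Of the listed names, 6 were not matched. The regions named are those at imprinted and germ line genes, the 12 largest, the 5 of highest and lowest spread among those of 10 or more positions, the 5 of highest coverage, and up to 4 for each other list; exceptions are marked, and 1 of the 12 largest is not reported here. The search was tested on simulated data. Alternatives covered the density, level window, merging, size, coverage, pooling and each column left out. Python 3.11.15, numpy 2.4.6, pandas 2.3.3, scipy 1.17.1 and matplotlib 3.10.9 were used.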

Additional observations from a re-analysis of the deposited data

Results flagged for a closer look

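In 4 of 64 sets of 10 column values, the highest or lowest column stood apart by a share of the range over 0.466; chance alone gives such a value in about 1 in 20 sets. The 7-position region in Cdh15 had 36.6% in column 10, with the others at 46.2 to 54.1%. The region at Zfp787 had 42.5% in column 9, with the others at 52.7 to 60.8%. The region at Hormad1 had 18.4% in column 4, with the others at 38.96 to 57.2%. The median coverage of region positions relative to other dense positions was 1.25 in column 7 and 1.05 to 1.15 in the other columns.

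The X chromosome, which the rule leaves out, gave 14 regions when searched in the same way, in 14 of 173 islands (8.09%), with 227 of 3417 dense positions as members. Columns were far apart in several of them. The region nearest to 4933416E14Rik had columns at 14.6% (lowest), 58.4% (median) and 71.6% (highest), and the one at Rtl9, a gene derived from a retrotransposon, had 39.6%, 55.5% and 83.0%. The sources used here give no sex of the embryos, and its part in these values was not tested.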

How the results depend on the processing

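No paired analysis was possible because the columns carry no group. Raising the density minimum to more than 20 positions within 100 bp gave 6756 members in 482 regions, and lowering it to more than 10 gave 74480 in 6053. A window of 45 to 55% gave 10982 members and 721 regions, one of 35 to 65% 34148 members, 20 or more reads in each column 6919 members and 551 regions, and a minimum of 10 positions 584 regions. The share of regions at imprinted genes (1.86%) was 0.843% with more than 10 positions, 2.90% with more than 20, 3.05% at 45 to 55% and 3.25% with 10 positions a region. The share within 1000 bp of a gene end (20.6%) was 16.1, 28.2, 23.6 and 23.8% under those 4 settings, 22.7% with 20 reads and 30.6% with 2000 bp. The share with both flanks above 40% (61.8%) was 52.9% with more than 20 positions and 47.1% with 20 reads; it was 58.7% in flanks with no other region within 1000 bp, a setting chosen after seeing the data. The median chi-square per degree of freedom (2.63) was 2.94 with 20 reads. The cause of these shifts was not tested, beyond the numbers of positions each setting admits. Merging within 100 or 500 bp, removal of the most covered 1%, averaging of column levels and leaving out any column left every value above close to that reported; the level in a left-out column was not recomputed with averaging or a further column left out. Depth limits single columns: at 26 to 48 reads per position, the range over columns contains counting error, and positions below 10 reads in any column are not in the table.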
